A study of Mus musculus with 4 samples.

Results

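The genes described here encode the proteins of the cornified envelope, the cross-linked protein shell of the outermost epidermal cells, and they lie together in the epidermal differentiation complex on mouse chromosome 3. Members were the genes on that chromosome whose symbols start with Lce or Sprr, together with Flg, Flg2, Hrnr, Rptn, Tchh, Tchhl1, Crnn, Ivl and Lor. By this rule 47 of 55450 annotated genes were members, with 21 Lce genes, 17 Sprr genes (pseudogenes included), Lor, Ivl and 7 fused S100-type genes, over 1.39 Mb from chr3:92080271 to 93471980 in mm10. Peaks of chromatin accessibility from 4 libraries were merged wherever they shared at least 1 bp, and 80 of the 82641 merged regions overlapped a member gene body extended by 10 kb on each side. These regions are numbered R1 to R80 along the chromosome.

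Accessibility was measured by ATAC-seq in mouse keratinocytes, which per the study's methods were sorted as EpCam+ CD49f hi epidermal cells, so that cells high in integrin alpha 6, a protein of the basal layer, were kept. The labels give keratinocytes as the cell type but whole skin as the source, and the peak lists do not settle whether sorted cells were used for every library. Mice had received a topical cream with 5% imiquimod (Aldara) for 8 consecutive days, a mouse model of psoriasis-like skin inflammation. Per the methods, the mice were adult females on a C57BL/6 background, with littermates as controls. The 2 WT libraries came from wild-type mice and the 2 Mapk8-KO libraries from mice whose floxed Mapk8, the gene of the kinase JNK1, had been deleted by a Cre recombinase under the keratin 14 promoter. The comparison asks how chromatin accessibility of inflamed keratinocytes differs when JNK1 is missing from the epidermis. All 4 libraries came from treated mice, so none shows untreated skin. Whether each library held 1 animal or several is not given in the sources used here, and the p-values measure the spread between these libraries only.

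As background, a keratinocyte that leaves the basal layer turns on involucrin (Ivl) and the small proline-rich proteins (Sprr) early, then loricrin (Lor), filaggrin (Flg) and the late cornified envelope (Lce) proteins. Transglutaminases cross-link these proteins beneath the plasma membrane. AP-1, the dimer of Jun and Fos proteins that JNK acts on, binds TGACTCA or its reverse complement and is a known regulator of the Ivl and Sprr promoters.

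For the whole series, the peak lists held between 49856 and 69927 intervals per library. The height used below is the summit pileup, the number of sequenced fragments covering a peak's summit, which was recovered as a whole number from the deposited fold enrichment and -log10 p for at least 99.996% of peaks. With WT 1 set to 1, the relative depth of WT 2 was 0.691, that of Mapk8-KO 1 was 1.12 and that of Mapk8-KO 2 was 0.644, and a depth-scaled pileup is a pileup divided by this factor. Where 4 values are given, they run in the order WT 1, WT 2, Mapk8-KO 1, Mapk8-KO 2, and a pair of values of a genotype runs from its library 1 to its library 2. Promoter peaks were called at 4 to 6 of 6 basal and at 3 to 4 of 4 suprabasal keratinocyte marker genes per library, and the Langerhans cell gene Cd207 had none. The immune genes Ptprc, Cd3e, Lyz2 and Itgam had no promoter peak in any library. In all 4 libraries, peaks were called at 2 of 2 melanocyte, 2 of 3 fibroblast and 1 of 2 endothelial marker genes, and the part of such cells in the results was not tested. WT pileups at the Krt14 promoter were 38 and 17 fragments and Mapk8-KO pileups were 199 and 109, so it was higher in both libraries labelled Mapk8-KO. The peak lists do not show whether exons of Mapk8 were deleted. In bulk libraries, fewer cells with an open site and less opening per cell cannot be told apart.

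Most cornified envelope genes had a called region nearby, but the share with a called promoter was lower than among protein-coding genes at large. Of the 47 genes, 39 (83%) had at least 1 region within 10 kb, beside 80.2% of 21951 protein-coding genes and 60.1% of all annotated genes. A region called in all 4 libraries lay within 10 kb of 21 (44.7%), beside 70.3% and 47.7%. A region within 2 kb of their own transcription start was found at 20 (42.6%), beside 64.7% and 38.3%, and at 11 of these it was called in all 4 libraries (23.4% of the 47, beside 55% and 30%). These shares were not tested. Regions called in all 4 libraries made up 37 of 80 (46.2%), beside 48.6% of all merged regions. The Sprr genes held 38 regions, the Lce genes 24, the fused S100-type genes 13, Ivl 4 and Lor 1. The 8 genes with no region were Sprr2e, Lce1a2, Lce1c, Lce1e, Lce1g, Lce1h, Lce1i and Flg2. Summits lay between genes at 61 regions, in introns at 12, in coding exons at 5, in a UTR at 1 and in another exon at 1.

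**Figure D1:**
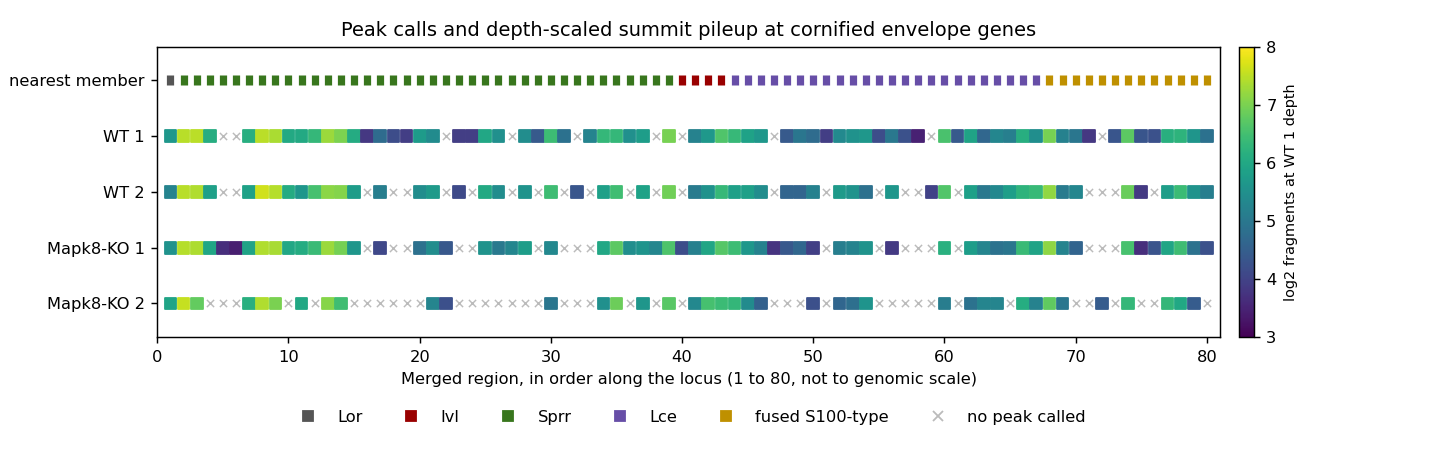
Peak calls at the 80 regions in order along the locus (x axis) in each of the 4 libraries (rows). Squares are called peaks coloured by log2 depth-scaled summit pileup, crosses mark no call, and the top row gives the family of the nearest member; Mapk8-KO 2 has the fewest squares, 39, beside 70 in WT 1, 56 in WT 2 and 62 in Mapk8-KO 1.

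Calls differed between libraries of the same genotype as much as between genotypes. WT 1 called 70 of the 80 regions and WT 2 called 56. Mapk8-KO 1 called 62 and Mapk8-KO 2 called 39. The shares of member regions called were thus 87.5%, 70.0%, 77.5% and 48.8%, beside 83.8%, 65.2%, 83.2% and 59.1% of all merged regions in the same order. Promoters were called at 19, 15, 16 and 11 of the 47 genes (40.4%, 31.9%, 34% and 23.4%), beside 62.1%, 58%, 62.2% and 58.6% of protein-coding genes.

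Genotype-specific calls were rare. Regions called in both WT libraries and in neither Mapk8-KO library numbered 1 of 80, beside 2.17% of all regions. The WT-specific region (R23) lay between genes, 2373 bp from the start of Sprr2i, with WT pileups of 15 and 12 fragments. Regions called in both Mapk8-KO libraries and in neither WT library also numbered 1 of 80, beside 1.65% of all regions. This region (R22) lay 8591 bp from the start of Sprr2h, with Mapk8-KO pileups of 23 and 12 fragments. Both had few fragments, and neither was at a promoter of a member. Their bases around the summit are shown because they are the only member regions called by genotype, with TEAD motifs (GGAATG or CATTCC) in capitals.
WT-specific region near Sprr2i, chr3:92410652-92410852, plus strand: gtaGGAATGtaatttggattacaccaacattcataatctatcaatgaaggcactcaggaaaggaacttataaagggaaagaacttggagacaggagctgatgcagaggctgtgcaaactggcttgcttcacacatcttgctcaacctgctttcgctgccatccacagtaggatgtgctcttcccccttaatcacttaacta
Mapk8-KO-specific region near Sprr2h, chr3:92394408-92394608, plus strand: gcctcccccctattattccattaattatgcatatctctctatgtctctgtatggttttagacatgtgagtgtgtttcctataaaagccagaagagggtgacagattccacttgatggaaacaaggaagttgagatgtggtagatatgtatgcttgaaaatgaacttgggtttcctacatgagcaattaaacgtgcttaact

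A larger group of regions was missing in a single library. Among regions called in the 3 other libraries, Mapk8-KO 2 lacked 16 of 53 (30.2%), beside 16.9% of such regions over the whole series. WT 1, WT 2 and Mapk8-KO 1 each lacked 0 of 37, beside 1.13%, 9.09% and 0.781%. The 16 regions lay nearest to Sprr genes in 9 cases, to Lce genes in 4 and to fused S100-type genes in 3. With only regions that had a depth-scaled pileup of at least 30 in each of the other 3 libraries, Mapk8-KO 2 lacked 8 of 40, beside 5.77% of such regions. The group was noticed after the calls were seen. In regions that it did call, Mapk8-KO 2 had summits of as few as 12 fragments, at a recovered local background of 1.57 (R22 and R50). The missing regions past the pileup limit lay at higher background, where a call takes more fragments. In the other 3 libraries it ran from 6.06 (R65, WT 2) to 29.1 (R12, Mapk8-KO 1). The medians over all called regions were 3.35 in WT 1, 2.50 in WT 2 and 3.67 in Mapk8-KO 1. Mapk8-KO 2 was also the library of lowest depth. The parts of depth beyond the pileup limit and of local background in this group were not tested.

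At the 37 regions called in all 4 libraries, accessibility differences between genotypes were mostly small. In limma on log2 pileup with Benjamini-Hochberg adjustment over 40159 regions, 1 of 37 was higher in WT, beside 0.214% of all regions, and 0 of 37 were higher in Mapk8-KO, beside 0.0199%. At an unadjusted p under 0.05 the count was 10 of 37, beside 10.4% of all regions. The median log2 difference, WT minus Mapk8-KO, was 0.19 over the 37 regions, with quartiles of -0.074 and 0.35, beside -0.0053 over all 40159 regions. Of the 37, 24 were above 0 and 13 below. Regions outside promoters over the whole series had a median of 0.056, and those with an AP-1 motif 0.14.

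This median depended on single libraries of both genotypes. Without Mapk8-KO 2 it was 0.072, but over 53 regions, since those missing only in that library then counted. Over the same 37 regions as above, leaving out WT 2 lowered it to 0.087, while it was 0.24 without WT 1 and 0.24 without Mapk8-KO 1. The median difference was 0.26 for WT 2 minus Mapk8-KO 2 and 0.20 for WT 1 minus Mapk8-KO 2. It was 0.074 for WT 1 minus Mapk8-KO 1 and 0.016 for WT 2 minus Mapk8-KO 1. Within a genotype, Mapk8-KO 1 minus Mapk8-KO 2 was 0.21 and WT 1 minus WT 2 was 0.0039. The difference between the genotypes was therefore no larger than that between the Mapk8-KO libraries.

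Both WT libraries were above both Mapk8-KO libraries in depth-scaled pileup at 17 of 37 regions (45.9%), beside 20.3% of all regions. The reverse order held at 3 of 37 (8.11%), beside 20.3%. The 17 regions were nearest to Sprr2a1, Sprr2a2, Sprr2a3, Sprr3, Sprr4, Lce6a, Lce1b, Lce1f, Lce1k, Lce3f, Lce1m, Rptn and Tchhl1, and the 3 were the promoters of Sprr1a and Ivl and a region near Lce1m. By the rank rule, a percentile of fold enrichment that was at least 10 points higher in both libraries of a genotype, 2 of 37 regions were higher in WT, beside 4.65%, and 2 of 37 were higher in Mapk8-KO, beside 4.07%. Percentiles run over the 40159 regions called in all 4 libraries.

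**Figure D2:**
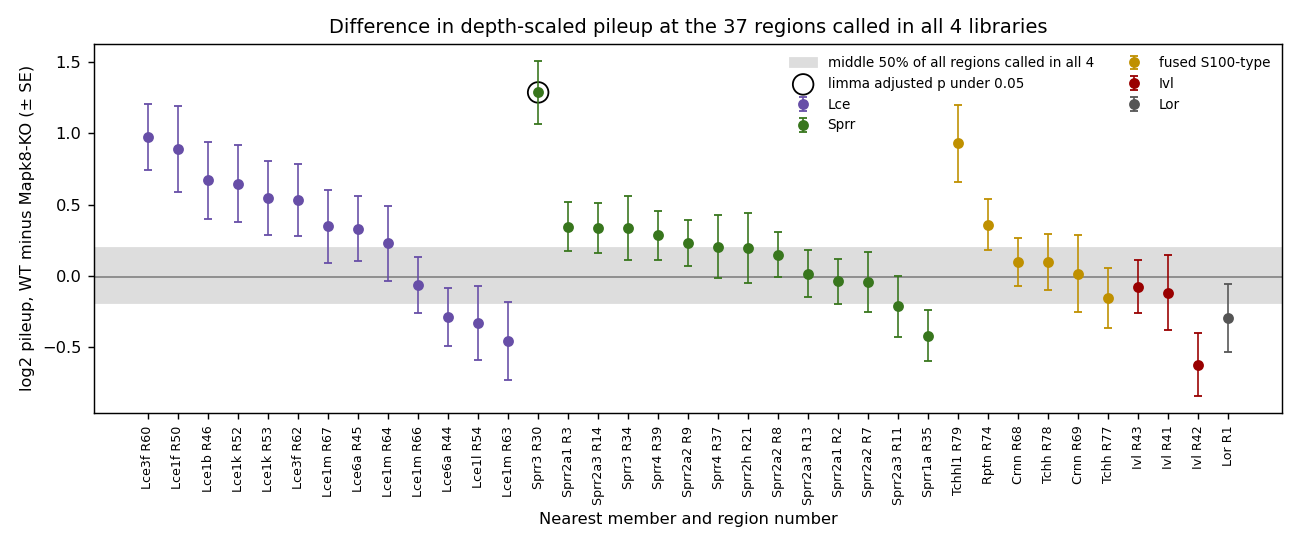
Log2 difference in depth-scaled summit pileup, WT minus Mapk8-KO (y axis, ± SE, limma), at each of the 37 member regions called in all 4 libraries (x axis), coloured by family and ordered by value within it. The grey band holds the middle 50% of all 40159 regions; 24 points lie above 0, and the circled Sprr3 region at 1.29 is the member region past the adjusted p threshold.

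The Sprr genes encode small proline-rich proteins that cross-bridge other envelope proteins. The region past the threshold (R30, chr3:92455147-92455541) lay between genes, 961 bp downstream of the end of Sprr3 and 3179 bp from its start. Sprr3 is the Sprr member typical of internal stratified epithelia. WT pileups were 86 and 60 fragments and Mapk8-KO pileups 45 and 20, or 86, 86.8, 40.3 and 31.05 after depth scaling. The WT libraries were alike and the groups did not overlap. The log2 difference was 1.29 ± 0.22 (SE, n = 2 each) with a limma adjusted p of 0.0057. Fold enrichment over local background was 16.2, 15.5, 13.1 and 8.18 in the same order, and the region was also ranked higher in WT, by 13.5 points. On log2 fold enrichment in place of pileup the difference was 0.60 with a limma adjusted p of 0.572, and the recovered local background was 4.38, 2.93, 2.52 and 1.57 fragments. Without WT 2 the limma adjusted p on pileup was 0.0774, and without a variance trend it was 0.221. Its summit stretch is printed because it carries the difference, with the TEAD motif in capitals, and it held no AP-1 motif.
Region near Sprr3, chr3:92455167-92455367, plus strand: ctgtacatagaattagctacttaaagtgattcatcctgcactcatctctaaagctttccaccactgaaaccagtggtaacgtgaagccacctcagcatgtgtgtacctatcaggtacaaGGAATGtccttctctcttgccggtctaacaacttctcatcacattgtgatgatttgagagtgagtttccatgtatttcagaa

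Sprr1a, induced in stressed and differentiating keratinocytes, differed in the other direction at its promoter (R35, chr3:92485837-92486667). Its WT pileups were 80 and 61 fragments and its Mapk8-KO pileups 119 and 76. Depth scaling gave 80, 88.3, 106.7 and 118.0, so the groups did not overlap. The log2 difference was -0.42 ± 0.18 (SE, n = 2 each), which did not pass the test (limma adjusted p = 0.386), and the rank gap was 8.94 points. At Sprr1b, on the other side of Sprr3, 3 regions (R25, R26 and R28) were called in the other libraries with pileups of 30 to 63. Their local background there was 6.09 to 9.30 fragments, and they were not called in Mapk8-KO 2. At Sprr4, a region 4338 bp upstream (R39) had 126, 83, 109 and 67 fragments, with a log2 difference of 0.29 ± 0.17 (limma adjusted p = 0.582).

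The Sprr2 genes are tandem copies, and the promoters of 8 of the 13 shared an AP-1 site that lay in a region called in all 4 libraries at Sprr2h only. In the 300 bases of RefSeq promoter sequence (250 before the start and 50 after it, GRCm38.p6), 43 of the 47 members had an entry, and 10 of these (23.3%) held TGACTCA or TGAGTCA, beside 5.2% of 32851 promoters. Among them were 7 Sprr2 genes, and Sprr2g, annotated as a polymorphic pseudogene and read from the genome at its GENCODE start, made 8. In these 8 the motif started 193 to 198 bases upstream of the start. In Sprr2j-ps it lay 150 bases upstream, and the promoters of Sprr2a1, Sprr2a2, Sprr2a3 and Sprr2c-ps held none. The 61 bases around it are shown on each gene's strand, with AP-1 motifs in capitals (Sprr2k held a second one, 182 bases upstream), and between any pair of them from 37.7% to 93.4% of positions were identical without gaps.
Sprr2b, chr3:92316483-92316543, plus strand: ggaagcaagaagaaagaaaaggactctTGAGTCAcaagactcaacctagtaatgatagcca
Sprr2d, chr3:92338920-92338980, plus strand: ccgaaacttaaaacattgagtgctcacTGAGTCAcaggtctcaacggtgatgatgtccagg
Sprr2e, chr3:92351923-92351983, plus strand: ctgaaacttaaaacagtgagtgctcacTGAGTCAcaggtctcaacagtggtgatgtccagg
Sprr2f, chr3:92364963-92365023, plus strand: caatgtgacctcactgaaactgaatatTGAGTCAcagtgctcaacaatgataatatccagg
Sprr2g, chr3:92373694-92373754, plus strand: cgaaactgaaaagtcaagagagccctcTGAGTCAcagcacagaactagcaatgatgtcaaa
Sprr2h, chr3:92385460-92385520, plus strand: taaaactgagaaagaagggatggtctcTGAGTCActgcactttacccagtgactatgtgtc
Sprr2i, chr3:92407771-92407831, plus strand: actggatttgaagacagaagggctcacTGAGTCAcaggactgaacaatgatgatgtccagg
Sprr2k, chr3:92432359-92432419, plus strand: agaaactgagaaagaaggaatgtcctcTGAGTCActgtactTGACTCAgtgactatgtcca

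Calls over this shared site differed between copies, and the pileups given are those of the region's summit, not of the motif. At Sprr2g the region over the site (R20, chr3:92373640-92374016) had WT pileups of 53 and 30, a pileup of 32 in Mapk8-KO 1 and no call in Mapk8-KO 2. At Sprr2h (R21, chr3:92385457-92385921) it was called in all 4 libraries, at 42, 36, 48 and 25 fragments. The summits lay 63 to 138 bp from the motif at Sprr2g and 65 to 125 bp from it at Sprr2h. The Sprr2h log2 difference was 0.19 ± 0.25 (SE, n = 2 each; limma adjusted p = 0.84), within the spread between libraries. At Sprr2d and Sprr2f the site was called in WT 1 only, at 18 and 15 fragments. At Sprr2b, Sprr2e, Sprr2i and Sprr2k no region covered it. At Sprr2j-ps the motif was in a region called in WT 1 only, at 15 fragments.

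The nearly identical genes Sprr2a1, Sprr2a2 and Sprr2a3 held the highest pileups of all members, but most of the sequence of their regions recurs in the locus. Their 14 regions (R2 to R15) lay from 87.8% to 100% in 50-base words that recur in the locus, and 13 of them lay mostly in words of 300 bases that recur. The study's methods state that reads mapping to several places were removed, yet these regions were called with up to 179, 138, 195 and 121 fragments. The values of the 3 genes are therefore uncertain, since many fragments there may not be assignable to 1 copy, and the placing of reads was not examined. A region 3439 bp upstream of Sprr2a1 (R2) had 177, 122, 195 and 121 fragments, or 177, 176.5, 174.8 and 187.9 after depth scaling, a log2 difference of -0.036 ± 0.16 (SE, n = 2 each; limma adjusted p = 0.965). The local background recovered at those of the 14 regions called in all 4 libraries was 6.42 to 28.6 fragments. The same AP-1 stretch was present in all 3 copies, and it is shown to make the identity visible, with the motif in capitals. The Sprr2a2 stretch lay in an intron of the annotated gene, in a region (R9) 1928 bp upstream of an internal start.
Upstream of Sprr2a1, chr3:92213868-92213928, plus strand: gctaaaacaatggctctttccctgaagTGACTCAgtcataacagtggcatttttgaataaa
Upstream of Sprr2a2, chr3:92248686-92248746, plus strand: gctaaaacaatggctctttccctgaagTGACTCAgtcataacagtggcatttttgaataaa
Upstream of Sprr2a3, chr3:92283354-92283414, plus strand: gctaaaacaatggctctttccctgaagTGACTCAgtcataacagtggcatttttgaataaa

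Leaving out these 14 regions changed some of the counts above. Regions called in all 4 libraries were then 29 of 66 (43.9%), and regions missing only in Mapk8-KO 2 were 12 of 41 (29.3%). With the pileup limit of 30 the missing regions were 4 of 28 (14.3%), nearer to the 5.77% of the whole series. The median log2 difference was 0.21 over 29 regions. Both WT libraries were above both Mapk8-KO libraries at 13 of 29, and the reverse held at 3 of 29. The WT-specific, Mapk8-KO-specific, rank and limma calls above all lay outside the repeated sequence.

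Involucrin (Ivl) is the early scaffold of the envelope, and its promoter had the lowest log2 difference, WT minus Mapk8-KO, of the 37 regions. The promoter region (R42, chr3:92573557-92574082) had WT pileups of 51 and 32 and Mapk8-KO pileups of 68 and 59. Depth scaling gave 51, 46.3, 60.96 and 91.6, so the groups did not overlap, and the Mapk8-KO libraries were farther apart than the WT libraries. The log2 difference was -0.62 ± 0.22 (SE, n = 2 each; limma adjusted p = 0.253), which did not pass the test. Its size rested on Mapk8-KO 2, since the difference was -0.35 without that library (limma adjusted p = 0.904) and -0.91 without Mapk8-KO 1 (limma adjusted p = 0.0098). Without WT 1 and without WT 2 the limma adjusted p was 0.46 and 0.766. A region in the Ivl coding exon (R41) had 37, 23, 40 and 26 fragments, with a log2 difference of -0.12 ± 0.26 (limma adjusted p = 0.924), although its fold enrichment ranked 5.49 points higher in WT. A region 5097 bp upstream (R43) had 98, 56, 115 and 55 fragments and a log2 difference of -0.074 ± 0.19 (limma adjusted p = 0.933).

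Loricrin (Lor), a main structural protein of the mature envelope, had a single region (R1, chr3:92080491-92081917), 1427 bp wide and with its summit in the coding exon. WT pileups were 50 and 26 fragments and Mapk8-KO pileups 52 and 39. The depth-scaled values of 50, 37.6, 46.6 and 60.5 overlapped between the groups (log2 difference -0.29 ± 0.24, SE, n = 2 each; limma adjusted p = 0.72). No region covered the AP-1 motif 48 bases upstream of its start. The promoter motifs of Ivl, Sprr1a and Lor are shown together, since the Ivl and Sprr1a sites lay in called regions and the Lor site did not.
Ivl, chr3:92573818-92573878, minus strand: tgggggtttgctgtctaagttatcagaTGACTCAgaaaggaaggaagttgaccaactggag
Sprr1a, chr3:92485994-92486054, minus strand: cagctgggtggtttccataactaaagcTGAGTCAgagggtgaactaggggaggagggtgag
Sprr1a, chr3:92485964-92486024, minus strand: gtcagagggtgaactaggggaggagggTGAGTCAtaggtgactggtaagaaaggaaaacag
Lor, chr3:92083157-92083217, minus strand: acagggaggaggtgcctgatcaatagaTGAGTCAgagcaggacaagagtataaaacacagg

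The Lce genes encode proteins added late to the envelope, and a promoter region was called at 3 of the 21 genes (14.3%), beside 64.7% of protein-coding genes. Of these, Lce6a was called in all 4 libraries (4.76% of the 21, beside 55%). A region within 10 kb was present at 15 of the 21 (71.4%, beside 80.2%). The Lce regions called in all 4 libraries had a median log2 difference of 0.35 over 13 regions. A region 5109 bp upstream of Lce3f (R60, chr3:92986721-92987117) was among the highest ranked of all members, at a mean percentile of 88.6. WT pileups there were 95 and 69 fragments and Mapk8-KO pileups 80 and 22. Depth scaling gave 95, 99.8, 71.7 and 34.2, so the groups did not overlap and Mapk8-KO 2 stood lowest. The log2 difference was 0.98 ± 0.23 (SE, n = 2 each), just short of the threshold (limma adjusted p = 0.057). This value rested on Mapk8-KO 2. Without Mapk8-KO 2 the difference was 0.41 with a limma adjusted p of 0.762, and without Mapk8-KO 1 it was 1.51 with a limma adjusted p of 8.4e-08. Without WT 1 and without WT 2 the limma adjusted p was 0.094 and 0.288.

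A region 2323 bp upstream of Lce1f (R50, chr3:92722673-92723059) had the largest rank gap toward WT, 29.5 points. It had WT pileups of 27 and 25 and Mapk8-KO pileups of 17 and 12, with fold enrichments of 8.28, 8.62, 5.11 and 5.07. The log2 difference was 0.89 ± 0.30 (SE, n = 2 each; limma adjusted p = 0.222), at low pileup. Near Lce1k (R52 and R53), the log2 differences were 0.65 and 0.55 (limma adjusted p = 0.361 and 0.45), and near Lce1b (R46) the value was 0.67 (limma adjusted p = 0.344). None of these passed the test, and at each the depth-scaled pileups of both WT libraries were above both Mapk8-KO libraries.

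Both regions ranked higher in Mapk8-KO lay near Lce1m. The region with the wider gap (R63, chr3:93014445-93014851) had its summit in a coding exon of the neighbouring gene Crct1, and its pileups were 25, 22, 43 and 25. Its depth-scaled values of 25, 31.8, 38.5 and 38.8 did not overlap between groups, and its rank gap was 22.6 points (log2 difference -0.46 ± 0.27, SE, n = 2 each; limma adjusted p = 0.585). The other (R66, chr3:93025477-93026020) had 70, 52, 94 and 44 fragments and a rank gap of 16.1 points. Its depth-scaled pileups of 70, 75.2, 84.3 and 68.3 overlapped, with a log2 difference of -0.064 ± 0.20 (limma adjusted p = 0.949), so rank and pileup differed there. The 201 bases around the summits follow for the Lce region with the largest log2 difference (R60) and for the Lce regions past the rank rule (R50, R63 and R66), with AP-1 and p63 motifs in capitals. The Lce3f stretch and the R66 stretch each held 1 AP-1 motif, the Lce1f stretch held a p63 motif, and the R63 stretch held none of the motifs searched.
Upstream of Lce3f, chr3:92986757-92986957, plus strand: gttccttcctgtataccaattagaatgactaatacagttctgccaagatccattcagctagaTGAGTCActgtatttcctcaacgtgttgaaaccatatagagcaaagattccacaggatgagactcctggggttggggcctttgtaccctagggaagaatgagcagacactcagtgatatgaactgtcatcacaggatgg
Upstream of Lce1f, chr3:92722831-92723031, plus strand: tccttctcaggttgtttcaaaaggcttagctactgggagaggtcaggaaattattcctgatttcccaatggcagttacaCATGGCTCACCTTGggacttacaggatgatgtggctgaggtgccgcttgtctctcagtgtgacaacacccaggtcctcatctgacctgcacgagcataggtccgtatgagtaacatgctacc
In Crct1, near Lce1m, chr3:93014557-93014757, plus strand: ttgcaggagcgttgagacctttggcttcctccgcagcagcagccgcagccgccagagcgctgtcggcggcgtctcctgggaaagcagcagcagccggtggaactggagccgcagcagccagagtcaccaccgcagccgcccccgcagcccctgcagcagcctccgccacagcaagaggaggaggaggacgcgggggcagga
Upstream of Lce1m, chr3:93025527-93025727, plus strand: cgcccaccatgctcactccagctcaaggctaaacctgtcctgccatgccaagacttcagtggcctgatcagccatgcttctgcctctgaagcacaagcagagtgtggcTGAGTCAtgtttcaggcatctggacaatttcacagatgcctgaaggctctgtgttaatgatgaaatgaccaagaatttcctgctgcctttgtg

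Lce6a had a pair of strong regions. The one at its promoter (R45) had 59, 39, 56 and 27 fragments, a mean percentile of 85.5 and a log2 difference of 0.33 ± 0.23 (limma adjusted p = 0.649). The other (R44), 10986 bp from its start and 2171 bp from that of 2210017I01Rik, had 81, 39, 96 and 51 fragments, a mean percentile of 93.7 and a log2 difference of -0.29 ± 0.20 (limma adjusted p = 0.66). Neither passed the test. The depth-scaled pileups at R45 were 59, 56.4, 50.2 and 41.9, with both WT libraries above both Mapk8-KO libraries, whereas at R44 they were 81, 56.4, 86.1 and 79.2 and the groups overlapped.

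**Figure D3:**
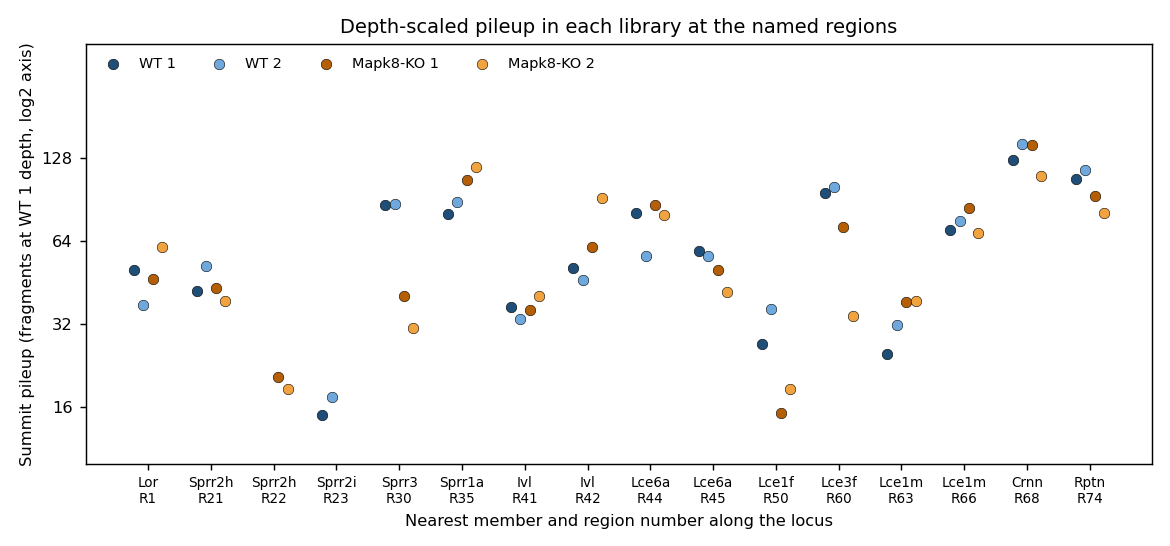
Depth-scaled summit pileup (fragments at WT 1 depth, log2 axis) at the 16 regions named by rule (x axis, nearest member and number), 1 point for each library in which a peak was called. At Sprr3 R30 both WT points, near 86, lie above both Mapk8-KO points, while at Ivl R42 and Sprr1a R35 both Mapk8-KO points lie above both WT points.

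The fused S100-type genes encode large keratin-binding and matrix proteins that join an S100 calcium-binding head to long repeats. Crnn, which encodes cornulin, had the most enriched member region (R68, chr3:93144461-93145147), over its start. Pileups were 125, 99, 158 and 71 fragments, the mean percentile was 97.6, and the log2 difference was 0.099 ± 0.17 (SE, n = 2 each; limma adjusted p = 0.893). A region 7642 bp from the start of Rptn (R74, chr3:93385439-93386057), in an intron of the annotated transcript Gm37245, had 107, 80, 104 and 52 fragments and a mean percentile of 89.96 (log2 difference 0.36 ± 0.18; limma adjusted p = 0.48). The Tchhl1 promoter (R79) had 49, 33, 33 and 14 fragments, with depth-scaled pileups of 49, 47.7, 29.6 and 21.7. Its log2 difference of 0.93 ± 0.27 (SE, n = 2 each) did not pass the test (limma adjusted p = 0.133), although the groups did not overlap.

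Filaggrin (Flg), whose product bundles keratin and is broken down to moisture-holding amino acids, had no promoter region in any library. Its 3 regions (R70 to R72) lay at least 7192 bp from the annotated gene and at least 11237 bp from the transcript start used here, which lies inside it. R70 had 31, 27 and 27 fragments in WT 1, WT 2 and Mapk8-KO 1 and no call in Mapk8-KO 2, R71 had 14 in WT 1 only, and R72 had 14 in Mapk8-KO 2 only. Flg2 had no region, and Hrnr, which encodes hornerin, had 1 region, called in WT 1 only at 20 fragments. In Flg, Flg2 and Hrnr with 2 kb on each side, 52.4%, 55.9% and 45.1% of bases lay in repeated 50-base words, and the part of this in the missing calls was not tested. At Tchh, the trichohyalin gene of hair follicles, both regions had their summits in a coding exon and differed by -0.15 ± 0.21 and 0.098 ± 0.20 on the log2 scale (limma adjusted p = 0.855 and 0.914).

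AP-1 motifs were frequent at member promoters. A motif within 100 bp of the strongest summit was found in 27 of 80 member regions (33.8%, Wilson 95% interval 24.3 to 44.6), beside 23.8% of all regions. At regions within 2 kb of any annotated start the counts were 13 of 33 (39.4%, 24.7 to 56.3), beside 12.0% of all such regions. Outside promoters the shares were 29.8% (18.7 to 44.0) and 28.1%. Without the repeated Sprr2a sequence the promoter share was 8 of 25 (32%, 17.2 to 51.6). By family, AP-1 motifs were in 44.7% of Sprr regions, 33.3% of Lce regions and 7.69% of fused S100-type regions. Neighbouring copies share sequence, so these regions are not independent and the intervals cover counting error only.

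**Figure D4:**
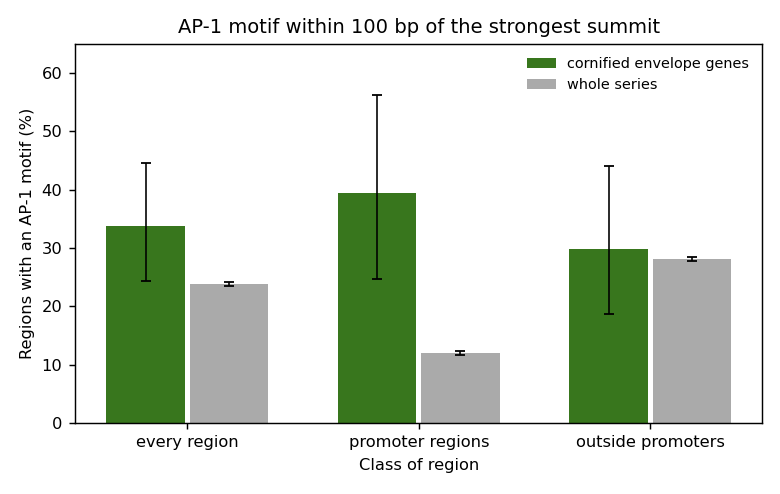
Share of regions (y axis, %) with TGACTCA or TGAGTCA within 100 bp of the strongest summit, for member regions (green) and the whole series (grey), by class of region (x axis). Error bars are Wilson 95% intervals; at promoters the member share is 39.4% beside 12.0%, and outside promoters the shares are 29.8% and 28.1%.

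Other motifs were searched in the same window on both strands. KLF sites (CCACCC or GGGTGG) were in 17.5% of member regions (10.7 to 27.3), beside 22% of all. At promoters they were in 3 of 33 (9.09%, 3.14 to 23.6), beside 27% of all promoters, and without the repeated Sprr2a sequence in 3 of 25 (12%, 4.17 to 30). TEAD sites were in 13.8% (7.85 to 23), beside 13.2%, and p63 sites in 11.2%, beside 8.78%. The CREB palindrome TGACGTCA was in 0 of 80, beside 0.773%, the ETS motif (CCGGAAGT or ACTTCCGG) in 0 of 80, beside 1.12%, and the C/EBP motif TTGCGCAA in 0 of 80, beside 0.16%. Among regions called in all 4 libraries, the 15 member regions with an AP-1 motif had a median log2 difference of 0.23 and the 22 without one 0.15. The order depended on the libraries. It was 0.064 against 0.15 for WT 1 minus Mapk8-KO 1 and 0.24 against 0.29 for WT 2 minus Mapk8-KO 2. It was 0.24 against 0.19 for WT 1 minus Mapk8-KO 2 and 0.090 against -0.013 for WT 2 minus Mapk8-KO 1. Without the repeated Sprr2a sequence 9 regions with the motif were left, 5 above 0 and 4 below (median 0.29).

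Genes that work with the envelope proteins were counted in the same way. At 17 genes for cross-linking, processing and partner proteins, such as transglutaminases, kallikreins and keratins 1 and 10, 57 of 99 regions were called in all 4 libraries, 2 were WT-specific, 2 were Mapk8-KO-specific, and none passed the limma test or the rank rule (median log2 difference 0.018). At 20 other genes of the locus, the S100a genes among them, 39 of 61 regions were called in all 4, with 0 WT-specific, 2 Mapk8-KO-specific, 1 ranked higher in WT, 3 ranked higher in Mapk8-KO and 0 limma calls (median -0.0043). Of these 61 regions, 8 are also member regions, and without them 32 of 53 were called in all 4, 1 was ranked higher in Mapk8-KO and the median was 0.015. At 6 regulators of terminal differentiation, Klf4 and Trp63 among them, 27 of 52 were called in all 4, with 1 WT-specific, 2 ranked higher in Mapk8-KO and 0 limma calls (median 0.040). Each of these lists had 7 regions missing only in Mapk8-KO 2, beside the 57, 39 and 27 called in all 4, so equal counts were unequal shares. The members had 16 beside 37, and all regions had 8187 beside 40159. These differences were not tested.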

How the data were processed

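ATAC-seq peak lists of 4 libraries (2 WT, 2 Mapk8-KO) were analysed. The methods describe alignment to mm10 by Bowtie2, removal by the authors of reads with several hits, and MACS2 peak calling. They name no control, and a peak list was available for each library. The submitters' processing notes also name STAR 2.5.3 and Trimmomatic 0.36. The methods state a q cutoff of 0.05, whereas the highest q-value in the deposited lists is 0.0097. Deposited columns used were the fold enrichment ratio over local background, -log10 p-value, -log10 q-value and summit, and the integer score the authors deposited was not needed. Summit pileup and local background were solved from fold and -log10 p. Regions were made by 1 bp merging and annotated with GENCODE vM21 on GRCm38.p6, the same assembly as mm10. limma 3.58.1 (R 4.3.3) was run with a variance trend on log2 pileup, each library centred on its median deviation from region means, at an adjusted p under 0.05 over 40159 regions, and tested on simulated data. An exact permutation test of 2 against 2 cannot go below p = 0.333. The DESeq2 test of the methods needs read counts, which peak lists do not hold. A peak list gives no value where no peak was called. Regions were named in full if they were promoters of Flg, Lor or Ivl or the 3 other highest ranked member promoters, the 5 highest by mean percentile, limma or genotype-specific calls, or the 3 largest rank gaps in each direction; others given were chosen after their values were seen. Members and lists were chosen with earlier results of these data known. The result for 1 gene of the marker lists is not reported here.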

Additional observations from a re-analysis of the deposited data

How the results depend on the processing

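Of 71 alternatives over 8 results, 36 stayed within tolerance of the reported value (1.5 times for a count, 0.156, the SD between libraries of a genotype, for the median log2 difference, and the Wilson interval for the AP-1 share) and 35 moved beyond it. Counts and the AP-1 share have no sign, so only the median log2 difference could reverse, and it stayed positive. The tolerance for the median is wide: it ran from 0.072 to 0.24 when a library was left out and was 0.10 on log2 fold enrichment, against 0.19. The exclusion of repeated sequence, percentiles within the whole list and centring each library on its own median were chosen after seeing the data. The number of member regions was 37 with a 2 kb window and 148 with 50 kb. WT-specific regions numbered 3 with lists of equal length and 4 within 50 kb, and from 1 to 17 when a library was left out (15 without WT 2, 17 without Mapk8-KO 1, 3 without WT 1). Mapk8-KO-specific regions numbered 0 within 2 kb and from 1 to 7 when a library was left out (7 without Mapk8-KO 2). Regions ranked higher in WT numbered 4 with a gap of 5 points, 1 with 20 points, 4 on -log10 p, 5 on pileup, 1 within the whole list and from 4 to 8 when a library was left out. Those ranked higher in Mapk8-KO numbered 4 with a gap of 5 points, 1 with 20 points, 4 within the whole list and from 3 to 10 when a library was left out. limma called 0 member regions on log2 fold enrichment (0 of all regions, 5 members at an unadjusted p under 0.05), 0 without the variance trend (8 unadjusted), 2 with own median centring, and from 0 (without WT 2) to 7 (without Mapk8-KO 1) when a library was left out. The 7 were near Sprr2a1, Sprr3, Lce1b, Lce3f (2 regions), Ivl and Tchhl1, and without Mapk8-KO 2 the calls were 2, near Sprr3 and Lce3a. A left-out library leaves 1 sample in its group, which is assumed to vary like the others. Without Mapk8-KO 2 the fit and its median covered 53 member regions, since regions missing only in that library, such as the Lce3a region, were added. The AP-1 share was 23.75% within 50 bp of the summit, beside 17.0% of all regions. The replicate numbers did not pair the libraries: the replicate deviations of the genotypes correlated at r = 0.039 across 40159 regions. With the number as a replicate block, limma called 2 member regions, those near Sprr3 and Lce3f, and 4 regions ranked higher in WT and 4 higher in Mapk8-KO. The median log2 difference of 0.1948 could not change, since each genotype holds both replicate numbers, although this setting is counted among the 36. The causes of these moves were not tested. Low depth in Mapk8-KO 2 limits what its missing calls show.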
